A study of Arabidopsis thaliana with 4 samples.

Results

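SPO11-2, MND1, RCK, HTR12 and WYR, 3 genes of meiotic recombination and 2 of the centromere and the proteins around it, were compared between agamous and wild-type inflorescences of Arabidopsis thaliana. They are all the genes of these names for which a probe was listed for that gene alone, 5 of the 5415 loci measured that way, through 6 single-gene probes. MND1 stands as ATMND1 in the annotation. The mutant agamous lacks the MADS-domain factor that specifies stamens and carpels, and its flowers repeat sepals and petals. Each of 4 2-colour oligonucleotide arrays carried total RNA of agamous inflorescences and of wild-type inflorescences, so each array gave 1 ratio per probe. The labels name the genotype and the organ only. The allele, background, plant age, growth conditions and pooling are not given in the labels, nor whether the 4 arrays used separate plants, so that p-values measure the spread between arrays, which may be technical.

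Meiosis reduces the chromosome set in cells of the anther and ovule, which early in the process make programmed breaks in their DNA. Some of the breaks are repaired from the homologous chromosome and become crossovers. SPO11-2 is a subunit of the complex that makes the breaks, MND1 helps the repaired strand to invade the homologue, and RCK is the MER3 DNA helicase that matures crossover intermediates. HTR12 is CENH3, the histone H3 variant that marks centromeres in dividing cells of every organ, and WYR is the plant INCENP, the scaffold of the chromosomal passenger complex that holds Aurora kinases at the inner centromere. The agamous flower forms no anthers or ovules, and the inflorescence still holds dividing meristem and organ cells. In such bulk tissue fewer cells of a type and less RNA per cell cannot be told apart.

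The direction of the deposited log2 ratios is not settled. The labels give agamous as channel 1 for arrays 1 and 3 and as channel 2 for the other two arrays, but across probes array 1 correlated with array 3 at r = -0.66 and array 2 with array 4 at r = -0.71, against r = 0.70 for arrays 1 and 4 and r = 0.77 for arrays 2 and 3, with values at the bounds of plus and minus 6.64 left out (r is across probes, which are not replicates). With all values, the bounds included, these 4 coefficients were -0.076, -0.45, 0.60 and 0.49 in the same order, so that the opposition of arrays 1 and 3 rests on the values within the bounds. Ratios are therefore given as deposited and with the signs of arrays 2 and 3 turned. These turned ratios are likely agamous over wild type, since anther genes then fall below 0. The opposite overall sign would exchange higher and lower throughout, and the p-values do not cover the choice of signs. Between 26347 and 26418 of 26474 probes had a value on each array, array medians lay between -0.14 and 0.16, and none of the 5 genes had a value at the bounds. The mean ratio over arrays of each empty feature had a median of 1.89 when turned and 3.32 as deposited, so that spots without a probe did not centre on 0. Tested together with the probes, 4.34% of empty features passed limma's test when turned, and 17.6% of those with 4 values were above 0 on all arrays.

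With arrays 2 and 3 turned, all 5 genes lay above 0 on all 4 arrays, the direction opposite to that of the anther and carpel genes. WYR was likely about 2.1-fold higher in agamous inflorescences and SPO11-2 about 1.4-fold higher, and both passed limma's test. RCK, MND1 and HTR12 had similar means to SPO11-2 (1.40-fold, 1.36-fold and 1.36-fold) but did not pass. Thus 2 of 5 genes passed in the upward direction, against 8.23% of all 26100 features tested, and 0 passed in the downward direction, against 9.16% (17.4% in either direction). At an unadjusted p under 0.05 all 5 genes passed upward, against 22.7% of features. The 5 genes were chosen with earlier results of these data known, so that these shares do not test the set. A ratio above 0 on all 4 arrays was found for 31.0% of all features with 4 values, so that this sign pattern was common. The median of the 5 means was 0.48 on the log2 scale, against a median of 0.15 over all features. All 5 means, 0.44 to 1.08, lay below the median turned mean of empty features, 1.89. The signal of the members' spots over background was not examined. Centring each array on its own median moved the median of all features by -0.14, which left the 5 means at 0.30 to 0.94 and only WYR past the test (adjusted p = 0.0267). It also put RCK below 0 on array 4, where its turned ratio of 0.073 was under the array's turned median of 0.13. The same step changed the split of all calls from 2147 up and 2392 down to 880 up and 2671 down.

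**Figure D1:**
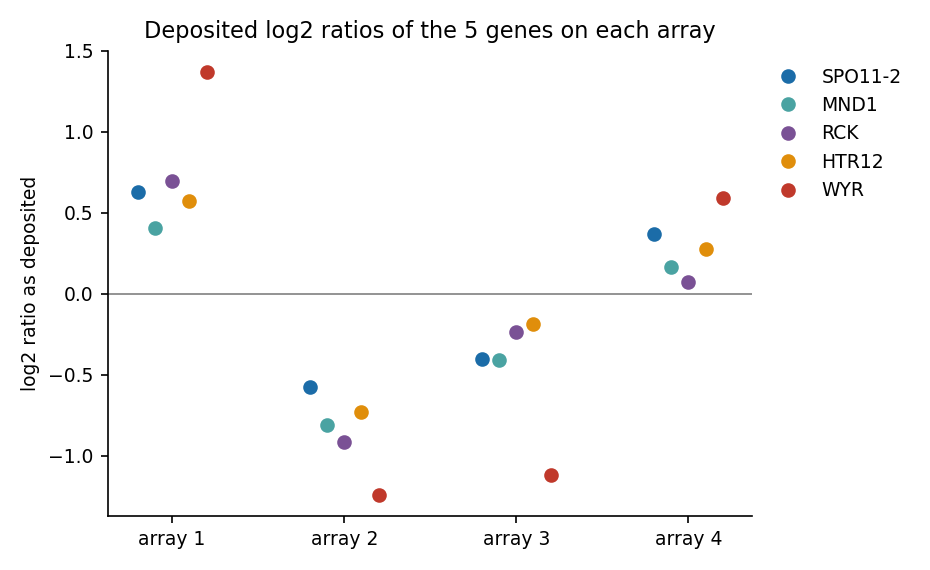
Deposited log2 ratio (y axis) of each of the 5 genes on arrays 1 to 4 (x axis), 1 point per gene and array. All 5 genes lie above 0 on arrays 1 and 4 and below 0 on arrays 2 and 3, and WYR lies farthest from 0 on each array.

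SPO11-2, which makes the breaks together with its relative SPO11-1, had deposited log2 ratios of 0.63, -0.58, -0.40 and 0.37 on arrays 1 to 4. The 4 values were close in size once arrays 2 and 3 were turned, but they are means of 2 probes, whose own SDs between arrays were 0.37 and 0.24, beside 0.25 for HTR12 and 0.27 for MND1 with 1 probe each. The turned mean was 0.49 ± 0.13 (SD, n = 4 arrays), a 1.41-fold difference (95% interval 1.17 to 1.69) with an adjusted p of 0.0399 (limma, Benjamini-Hochberg over all features). The gene had 2 probes, which had the same mean sign but not the same size. Probe A021714_01 had turned ratios of 0.39, 0.86, 0.42 and 0.77 on arrays 1 to 4 and passed on its own (mean 0.61, adjusted p = 0.0420). Probe A005559_01 had 0.86, 0.30, 0.37 and -0.035 and did not pass (mean 0.38, adjusted p = 0.192). On array 4 the first probe was thus at its second highest ratio and the second at its lowest, below 0. The call of SPO11-2 ended when any 1 array was left out (adjusted p of 0.108, 0.157, 0.0969 and 0.0892 without arrays 1, 2, 3 and 4), and when arrays were centred on their medians (mean 0.36, adjusted p = 0.0842).

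MND1, the partner of HOP2 in strand invasion, had deposited ratios of 0.41, -0.81, -0.41 and 0.17 on arrays 1 to 4. Array 2 was the farthest from 0 and array 4 the nearest. The turned mean was 0.45 ± 0.27 (SD, n = 4 arrays; 1.36-fold, 95% interval 1.06 to 1.75) with an adjusted p of 0.0905 (limma), and an unadjusted p of 0.0249.

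RCK, the crossover helicase, had deposited ratios of 0.70, -0.92, -0.24 and 0.073. Its array 4 value, the smallest of the 20 gene-by-array ratios, stood at percentile 45.0 of all features on that array after turning, while its array 2 value stood at percentile 92.6. The turned mean was 0.48 ± 0.39 (SD, n = 4 arrays; 1.40-fold, 95% interval 1.01 to 1.93) with an adjusted p of 0.131 (limma), and RCK thus had the widest spread among the 5 genes. Another probe, A016813_01, is listed for RCK and 1 other gene and was not used for RCK. Its turned ratios were 0.52, -0.090, 0.17 and 0.12 (mean 0.18, adjusted p = 0.376).

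HTR12, the centromeric histone, had deposited ratios of 0.58, -0.73, -0.19 and 0.27. Arrays 1 and 2 were the larger pair and arrays 3 and 4 the smaller. The turned mean was 0.44 ± 0.25 (SD, n = 4 arrays; 1.36-fold, 95% interval 1.06 to 1.73), with an adjusted p of 0.0880 (limma). Probe A021707_01, listed for HTR12 and 1 other gene and therefore assigned to neither, ran the opposite way on every array. Its turned ratios were -1.03, -0.91, -1.04 and -0.22, with a mean of -0.80 ± 0.39 (SD, n = 4 arrays) and an adjusted p of 0.0471 (limma, each probe tested alone). Which transcript this probe reported was not tested.

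WYR, the INCENP scaffold, had the largest ratios of the 5 genes, with deposited values of 1.37, -1.24, -1.12 and 0.59. After turning, arrays 1 to 3 lay close together and array 4 below them. These values stood at percentiles 94.0, 96.8, 98.2 and 83.4 of all features on the 4 arrays. The turned mean was 1.08 ± 0.34 (SD, n = 4 arrays), a 2.11-fold difference (95% interval 1.57 to 2.84) with an adjusted p of 0.0198 (limma). The call ended without array 1 (mean 0.98, adjusted p = 0.0669), array 2 (1.03, 0.104) or array 3 (1.07, 0.0701) and held without array 4 (1.24, 0.0190). Quantile normalization moved the mean to 2.13 and ended the call (adjusted p = 0.0907).

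**Figure D2:**
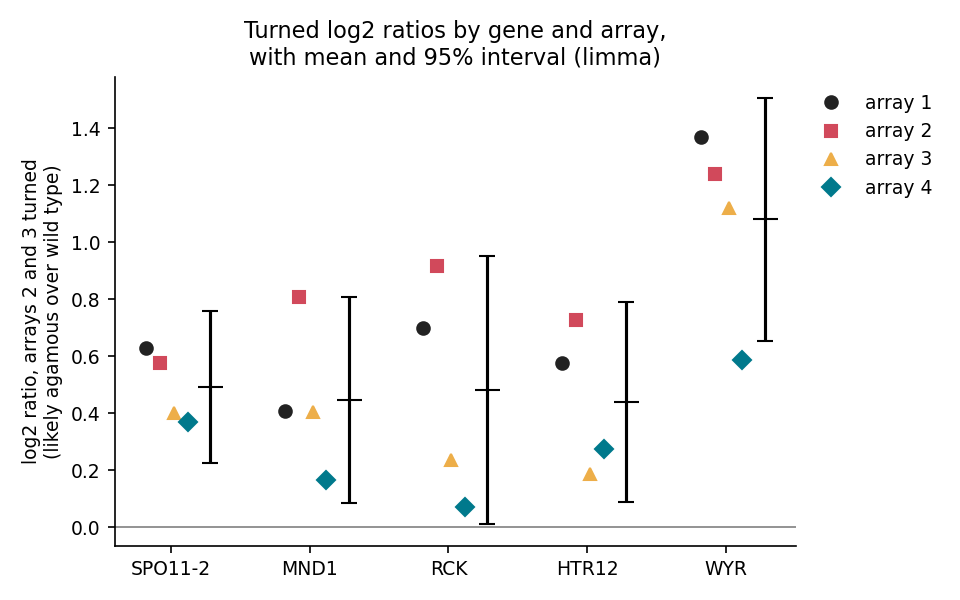
Log2 ratios with arrays 2 and 3 turned (y axis) for each gene (x axis), with a symbol per array and a bar for the mean and its 95% interval from limma over 4 arrays. All 20 ratios are above 0, and the intervals of all 5 genes overlap each other, WYR reaching down to 0.65.

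**Figure D3:**
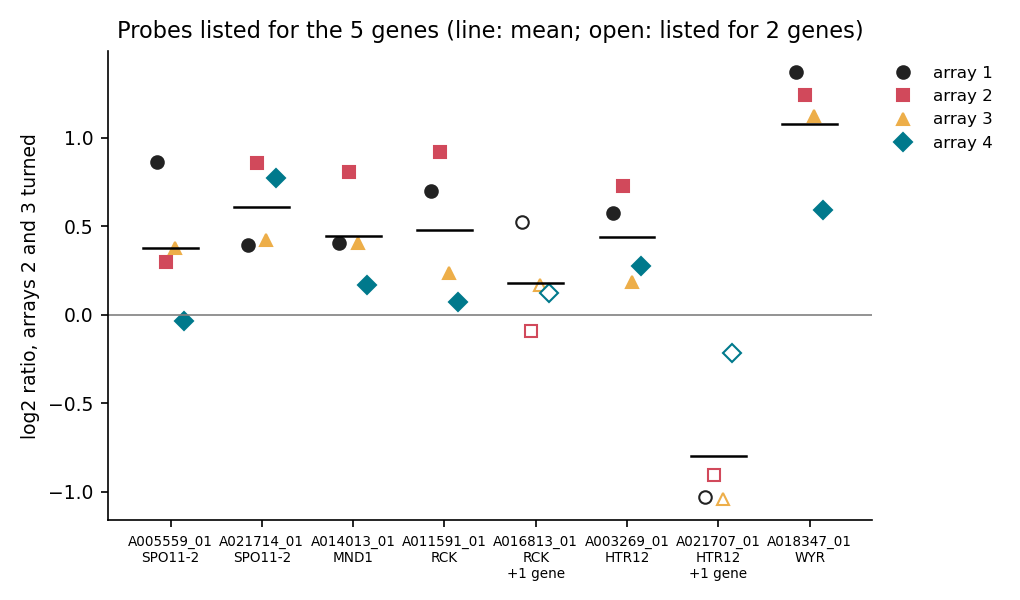
Turned log2 ratios (y axis) of the 8 probes listed for the 5 genes (x axis), a symbol per array and a line for the mean; open symbols are the 2 probes listed for a second gene too. The shared probe A021707_01 lies below 0 on all 4 arrays, and A005559_01 of SPO11-2 reaches -0.035 on array 4.

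The mean of WYR was 0.59 to 0.64 higher than those of the other 4 genes on the log2 scale, and WYR exceeded each of them on all 4 arrays, although its 95% interval began at 0.65 and overlapped theirs, whose upper ends were 0.76 to 0.95. The mean difference was 0.63 ± 0.26 from MND1, 0.60 ± 0.24 from RCK, 0.59 ± 0.25 from SPO11-2 and 0.64 ± 0.28 from HTR12 (SD, n = 4 arrays). An exact two-sided sign-flip permutation test gave p = 0.13 for each (0.13 also after adjustment over 9 comparisons), the smallest p that 4 arrays allow, so that this test could not reach 0.05. The other 4 genes had means within 0.44 to 0.49, a range smaller than the SD of each of them between arrays. After the values were seen, both of arrays 1 and 2 were found to exceed both of arrays 3 and 4 in turned ratio for all 5 genes, which was so for 19.1% of all features with 4 values. For SPO11-2 this held for the mean of its 2 probes and for neither probe alone.

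As deposited, the arrays cancelled. The means were 0.0051 for SPO11-2, -0.16 for MND1, -0.095 for RCK, -0.016 for HTR12 and -0.10 for WYR, and the SD between arrays was 0.55 to 0.67 for the first 4 genes and 1.29 for WYR (n = 4 arrays). No member passed limma's test (0 of 5, and 0 of 5 at an unadjusted p under 0.05), against 0.226% of all features past the adjusted threshold and 2.29% at an unadjusted p under 0.05. The 95% interval of the mean was -0.71 to 0.72 for SPO11-2 and -1.54 to 1.34 for WYR, which holds differences of the size seen in the turned ratios. Turned by the channel labels instead, with arrays 2 and 4 reversed, the means were 0.11, 0.16, 0.33, 0.21 and 0.22 in the same order of genes, and again 0 of 5 genes and 0.0% of features passed limma's test (0.732% of features at an unadjusted p under 0.05).

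**Figure D4:**
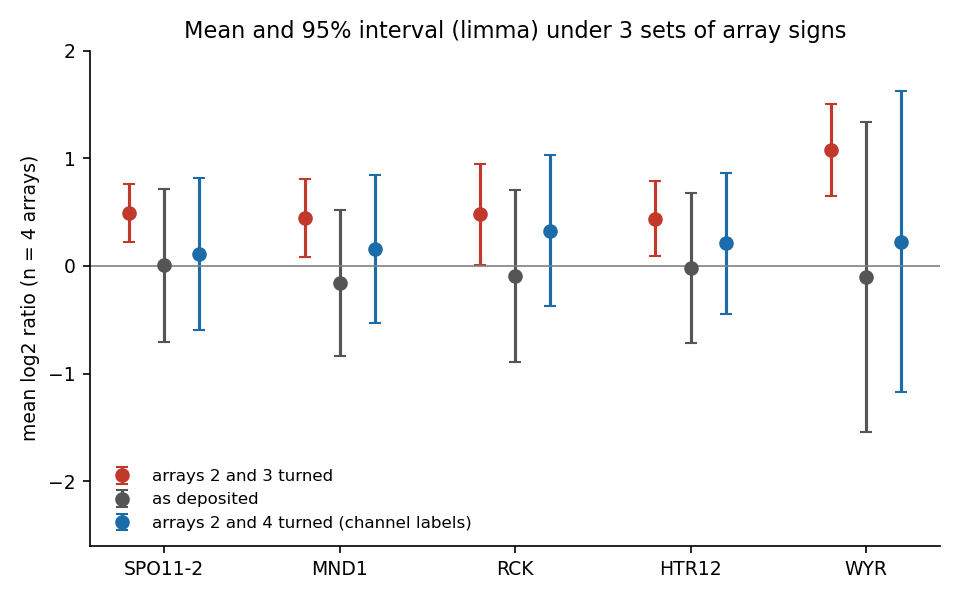
Mean log2 ratio over 4 arrays (y axis) of each gene (x axis) with its 95% interval from limma, for ratios with arrays 2 and 3 turned, as deposited, and with arrays 2 and 4 turned by the channel labels. The intervals lie above 0 for all 5 genes with arrays 2 and 3 turned and include 0 for all 5 genes in the other 2 readings.

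Few other genes of these pathways could be followed, since few of the names matched to a locus had a single-gene probe. Names without a match were not looked up among the probes. Of 47 listed names of meiotic recombination 40 were matched and 4 were measured by a single-gene probe, of which 1 (SPO11-2) passed upward and 0 downward, against 8.23% and 9.16% of all features. The fourth was DFO, which is also needed for break formation. Its turned ratios were -0.56, -0.13, -0.12 and -0.10, a mean of -0.23 ± 0.22 (SD, n = 4 arrays, adjusted p = 0.254), with all 4 arrays below 0 and array 1 far from the rest. Of 34 listed names of the centromere, kinetochore and passenger complex 15 were matched and 3 measured, of which 1 (WYR) passed upward and 0 downward, against the same shares of all features. MHF2, a histone-fold protein that works with the helicase FANCM and limits crossovers, had 0.18, -0.75, -0.47 and 0.027 after turning (mean -0.25 ± 0.43, adjusted p = 0.386), with arrays on both sides of 0. ICU2, the catalytic subunit of DNA polymerase alpha, was the 1 measured gene among 91 matched of 93 listed names of the mitotic cycle and DNA replication. Its turned ratios were 0.66, 0.76, -0.013 and 0.53 (mean 0.49 ± 0.35, adjusted p = 0.107), above 0 on 3 of 4 arrays. Of the meiotic axis list 26 of 31 names were matched, of the cohesin list 9 of 16 and of the list of other histone H3 genes 1 of 14, and 0 of these matched genes had a single-gene probe; the unmatched names were not analysed here.

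Genes of the organs that agamous flowers lack ran the other way. Of 9 measured genes of the tapetum and anther, pollen, and carpel and ovule lists, 7 passed with turned ratios below 0 (9.16% of all features) and 0 with ratios above 0 (8.23%), and all 9 were below 0 on all 4 arrays, a sign pattern found for 16.5% of all features. The anther genes set the overall sign, so that their direction is no independent evidence. ATA20, an anther gene, had turned ratios of -2.66, -2.98, -3.09 and -2.58 (mean -2.83 ± 0.24, adjusted p = 0.00119, limma). These are means of 2 probes, whose own means were -3.77 and -1.89. EMS1, a receptor kinase through which tapetal cells are set apart, averaged -1.35 ± 0.03, and SWEET8, a sugar transporter needed to build the pollen wall, -4.68 ± 0.86 (SD, n = 4 arrays each). ATA27, a beta-glucosidase of the tapetum, averaged -2.90 ± 0.90, but its 2 probes had means of -6.01 and 0.21. INO of the ovule integument averaged -1.52 ± 0.47, EC1.1, a peptide secreted by the egg cell, -1.27 ± 0.57, and CES of the transmitting tract -4.99 ± 0.77. The INO value is a mean of 3 probes, whose own means ran from -2.80 to -0.83. SPL, which starts sporogenous cells (-0.22 ± 0.10), and TUA1, an alpha-tubulin of pollen (-0.44 ± 0.15), did not pass.

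The distance from ATA20 does not depend on the overall sign of an array except in its direction. Within each array, SPO11-2 exceeded ATA20 by 2.95 to 3.56 on the turned log2 scale, MND1 by 2.75 to 3.79, RCK by 2.66 to 3.90, HTR12 by 2.86 to 3.71 and WYR by 3.17 to 4.22. The mean differences were between 3.27 for HTR12 and 3.91 for WYR, each of the same sign on 4 of 4 arrays (exact sign-flip permutation p = 0.13 for each, the smallest possible). On every array the 5 genes and the anther gene thus lay on opposite sides of 0, whichever RNA was the numerator. This holds for ratios not centred on array medians, since RCK on array 4 (0.073) lay below that array's turned median of 0.13. ATA20 was taken here as the measured anther gene with the smallest p in limma's test of turned ratios. Its consistent distance from 0 was thus part of its selection, so that the shared sign on 4 arrays is no independent evidence. SPL of the same list, with a turned mean of -0.22, lay nearer to the 5 genes.

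**Figure D5:**
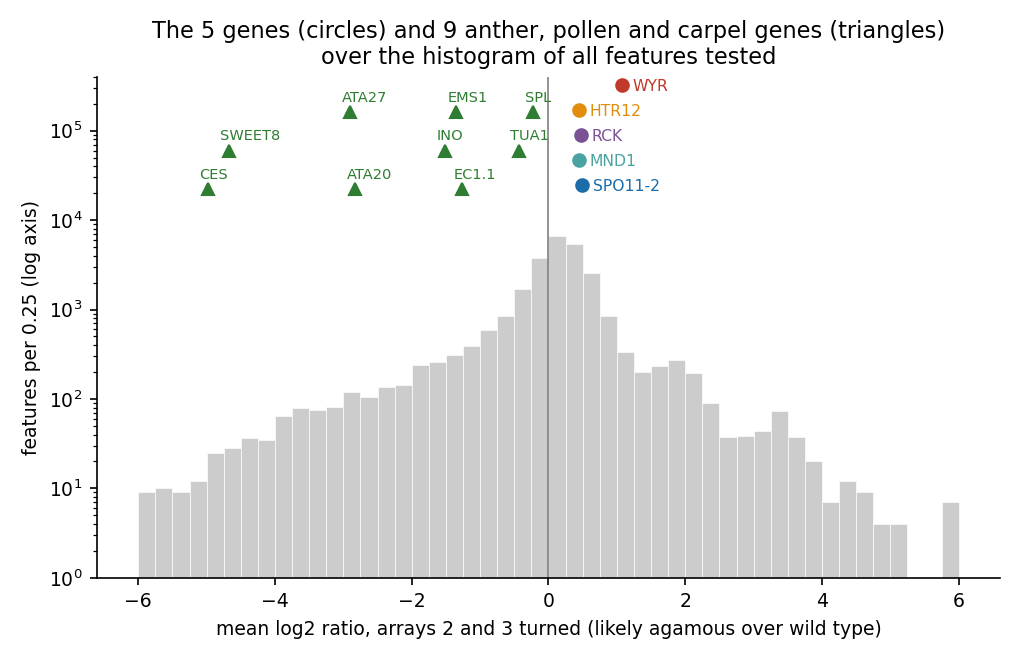
Histogram of the mean turned log2 ratio (x axis) over the 26100 features tested (bars, log y axis, outermost bars include values beyond plus and minus 6), with the 5 genes as circles and 9 anther, pollen, carpel and ovule genes as triangles, whose heights carry no value. The 5 genes lie between 0.44 and 1.08, within the right shoulder of the distribution, and the 9 organ genes between -4.99 and -0.22.

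Patterns closest to each gene were sought among 518 other named loci with 4 values within the bounds, by the root mean square difference between deposited ratios over the 4 arrays. The closest to WYR was Haspin, the kinase that phosphorylates histone H3 in mitosis, with 1.39, -1.22, -1.09 and 0.72 on arrays 1 to 4, a distance of 0.067 against a median of 1.06 over all candidates. Haspin had a turned mean of 1.1 (adjusted p = 0.0138, limma). The MAP kinase gene ATMPK13 (0.21) and the glycosyltransferase gene UGT73C1 (0.22) followed at about 3 times that distance. The closest to RCK was HTR12 (0.15), followed by scpl23 (0.16), a serine carboxypeptidase-like gene, and the glycosyltransferase gene GT72B1 (0.17). For HTR12 they were GT72B1 (0.066), the RecQ-like helicase gene RECQSIM (0.11) and ATERDJ3B (0.12), for MND1 TTL (0.058), TET7 (0.063) and CHL (0.12), and for SPO11-2 PUP16 (0.069), the histone demethylase gene LDL2 (0.090) and SETH1 (0.093). Median distances over the candidates were 0.52 to 0.60 for these 4 genes. The 3 nearest named loci of MND1, SPO11-2 and HTR12 were each closer to them than any of the other members was, as members other than WYR lay 0.14 to 0.24 apart.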

How the data were processed

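Each array held agamous and wild-type RNA in its 2 channels. The values are log2 ratios, normalized by the authors before deposit as in a publication that the labels cite. The steps, the numerator and the turning of swapped arrays are not stated in the labels. The log2 scale was read from the deposited values, which end at plus and minus 6.64. Centring is known only through array medians. The 5 genes and all lists were chosen with earlier results of these data known.

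Of 26474 probes (424 empty and 35 control features left out), 5784 had 1 gene in the platform annotation, 7497 several and 13193 none listed. Single-gene probes matched 5415 loci of RefSeq (assembly TAIR10.1) and were averaged per locus; others stayed as features. Features with values on at least 3 arrays were tested against 0, two-sided, with limma 3.58.1 (lmFit, eBayes, intercept only) in R 4.3.3, with Benjamini-Hochberg adjustment at 0.05. Intervals are 95% from the same fit. The number of arrays limits the precision. The procedure was tested on simulated data.

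The genes named were the 5 members, per list up to 4 genes past the test or the 2 with the smallest p, and the 3 nearest patterns per member. DFO, MHF2 and SPL are named beyond this rule as the remaining measured genes of their lists. List names that the reference gives to other genes were left out. Empty features were added to the test as an alternative chosen after seeing the data. No sequence is printed and no scanner signal was used here.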

Additional observations from a re-analysis of the deposited data

Results flagged for a closer look

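In 30 sets of 4 array values, the gap of the highest or lowest value from its neighbour was compared with the whole range, and 2 sets exceeded the critical ratio of 0.83. Chance alone gives about 5% of sets. In DFO, array 1 (-0.56 turned) stood apart from the other arrays (-0.13 to -0.10), with a ratio of gap to range of 0.946. In probe A021707_01, listed for HTR12 and 1 other gene, array 4 (-0.22 turned) stood apart from the other arrays (-1.04 to -0.91), with a ratio of 0.835.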

How the results depend on the processing

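With arrays 2 and 3 turned, MND1, RCK and HTR12 stayed above 0 and short of the threshold under each of their 15 alternatives (lowest adjusted p 0.0555, 0.0960 and 0.0609). SPO11-2 stayed above 0 under its 16 and passed under 6. It did not pass when turned by the labels (0.11), with a dye term (0.49, adjusted p = 0.0632), after centring (0.36) or centring and scaling (0.35), with unmoderated spread (0.49, adjusted p = 0.0562) or by probe A005559_01 alone (0.38), and without 1 array its mean was 0.45 to 0.53. The dye term used with turned ratios set arrays 1 and 4 against arrays 2 and 3, as the turning did. The dye term used with deposited ratios followed the labelled channels. WYR passed under 9 of 15. It did not pass when turned by the labels (0.22), after quantile normalization (2.13) or with unmoderated spread (1.08, adjusted p = 0.0708), and without 1 array its mean was 0.98 to 1.24. As deposited, no alternative gave any of the 5 genes an adjusted p under 0.05 (limma), but signs changed. Turning by the labels gave 0.16 for MND1, 0.33 for RCK, 0.21 for HTR12 and 0.22 for WYR. SPO11-2 had -0.0055 after centring, -0.021 after centring and scaling, -0.00031 after quantile normalization and -0.029 by probe A021714_01. Without 1 array the deposited means ran from -0.35 to 0.056 for MND1, -0.36 to 0.18 for RCK, -0.20 to 0.20 for SPO11-2, -0.21 to 0.22 for HTR12 and -0.59 to 0.28 for WYR. Of all features, 4539 passed with arrays 2 and 3 turned, 0 turned by the labels, 1869 with unmoderated spread, 6909 with a random block (arrays 1 with 2, 3 with 4), and 1721, 1084, 1953 and 2096 without arrays 1, 2, 3 and 4. Of the calls 47.3% were above 0, against 24.8% after centring, 27.0% after centring and scaling and 38.9% after quantile normalization. Without arrays 1, 2, 3 and 4, 325, 64, 497 and 476 calls were above 0 and 1396, 1020, 1456 and 1620 below, against 2147 above and 2392 below with all arrays. As deposited 59 passed, against 0 turned by the labels, 17 with a dye term, 14 after centring and scaling, 20 with values on all 4 arrays, 0 with values at the bounds missing, 94 with empty features added, and 18, 184, 24 and 21 without arrays 1, 2, 3 and 4. The cause of these changes was not tested. Precision is limited by the few arrays, and signal over background was not used here.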

Other observations

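Arrays 1 and 2 were set against arrays 3 and 4 after the values were seen. Their turned means were 0.60 against 0.38 for SPO11-2, 0.61 against 0.29 for MND1, 0.81 against 0.15 for RCK, 0.65 against 0.23 for HTR12 and 1.30 against 0.85 for WYR. MND1 was separated by a margin that rounding hides, with 0.41 on both arrays 1 and 3. SPO11-2 was separated only in the mean of its 2 probes. Its probe A021714_01 was lowest on array 1, and its probe A005559_01 was lower on array 2 than on array 3. The spread of all probes was also larger on arrays 1 and 2 (scaled median absolute deviation 0.591 and 0.544) than on arrays 3 and 4 (0.451 and 0.485), and its part in the pattern was not tested.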
